A study of Mus musculus with 42 samples.

Results

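RNA immunoprecipitation recovers the RNAs that travel with a protein, and a control precipitation from cells that lack the tag shows which RNAs reach the beads without it. The RNAs described here are those that anti-HA magnetic beads held back from lysates of mouse embryonic stem cells carrying no HA tag. They were chosen by their ratio in untagged cells, R, which is log2(mean IP CPM + 0.5) minus log2(mean input CPM + 0.5). CPM is a gene's raw count over the library's total count, on the usual CPM scale, IP is bead-bound RNA and input is RNA of the whole lysate. Genes with R of at least 2 in experiment 1 and at least 1 in experiment 2 were selected, which gave 33 of the 18620 genes present in both tables (0.177%). Of these, 32 carry a gene symbol, and all 32 are protein-coding in RefSeq (assembly GRCm38.p6).

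All cells derived from the 129S6/SvEvTac mES background, with the yGlob GFP_5xT71BS reporter and a stably transfected FLAG-Cas9::T2A::Blasticidin construct. Untagged cells had these elements alone, and tagged cells had HA-AVI-Tnrc6a in addition. Cells labelled Trim71KO carried HA-AVI-Tnrc6a and Trim71-/-, and cells labelled Ago2KO carried HA-AVI-Tnrc6a and Ago2-/-. Experiment 1 held untagged, tagged and Trim71KO cells, experiment 2 held these and Ago2KO cells, and each genotype had 3 input and 3 IP libraries, 42 in all. The labels give triplicate dishes and do not say whether a genotype is a single clone, so p-values measure the spread between these dishes.

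Total counts ran from 12587257 to 23657840 per library in experiment 1 and from 16296447 to 21026552 in experiment 2. All 10 stem cell markers were measured, with a summed input level of 7366 to 9375 CPM, against 7.73 to 73.9 CPM for 6 primitive endoderm markers, 23.3 to 70.6 CPM for 2 fibroblast markers, 48.2 to 149.9 CPM for 2 trophoblast markers and 9.50 to 34.8 CPM for 3 mesoderm and neural markers. Input Ago2 RNA lay at 168.5 to 178.4 CPM in Ago2KO cells and at 352.3 to 427.4 CPM in tagged cells. Input Trim71 RNA lay at 317.5 to 322.1 CPM in the libraries labelled Trim71KO and at 242.1 to 295 CPM in tagged cells of experiment 1, and at 388.6 to 404.8 against 290.6 to 338.5 CPM in experiment 2, so the RNA level does not check that label.

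HA is a short epitope of influenza hemagglutinin, and anti-HA beads carry an antibody against it. Cas proteins are docking proteins of focal adhesions, where they bind the adaptor Crk once Src family kinases have phosphorylated them. The family has 4 members in mouse, namely Bcar1 (p130Cas), Nedd9, Efs and Cass4. Tnrc6a is the GW182 protein that Argonautes bring to mRNAs targeted by microRNAs.

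Bcar1 RNA led the set. In untagged cells of experiment 1 the input libraries held 90.4, 82.5 and 78.0 CPM of Bcar1, and the IP libraries held 96445, 120937 and 99854 CPM. In experiment 2 the input libraries held 67.9, 79.1 and 79.2 CPM and the IP libraries 27559, 6130 and 20601 CPM. Every IP library lay far above every input library, and replicate 2 of experiment 2 lay lowest among the IP libraries. R was 10.30 in experiment 1 and 7.90 in experiment 2, the highest value of all genes in both tables. Bcar1 lies on the minus strand at chr8:111710474-111743849 (GRCm38).

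Of the Cas family, 3 of 4 genes were members. Efs had R of 7.70 and 5.81, and Nedd9, named for its expression in neural precursors, had R of 5.28 and 3.001. Cass4 had R of 0.38 and 0.04 and was no member. Nedd9 stood at 0.888, 1.21 and 1.02 CPM in untagged input of experiment 1 and at 53.4, 66.9 and 58.0 CPM in IP. The groups did not overlap, which is partly fixed because these values chose the gene. Nedd9 RNA was near 1 CPM in the lysate. Per kilobase of gene length, as the tables give it, the mean untagged IP level of experiment 1 was 23260 CPM for Bcar1, 1583 CPM for Efs and 9.32 CPM for Nedd9, while the input levels were 18.4, 7.42 and 0.163 CPM per kilobase.

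**Figure D1:**
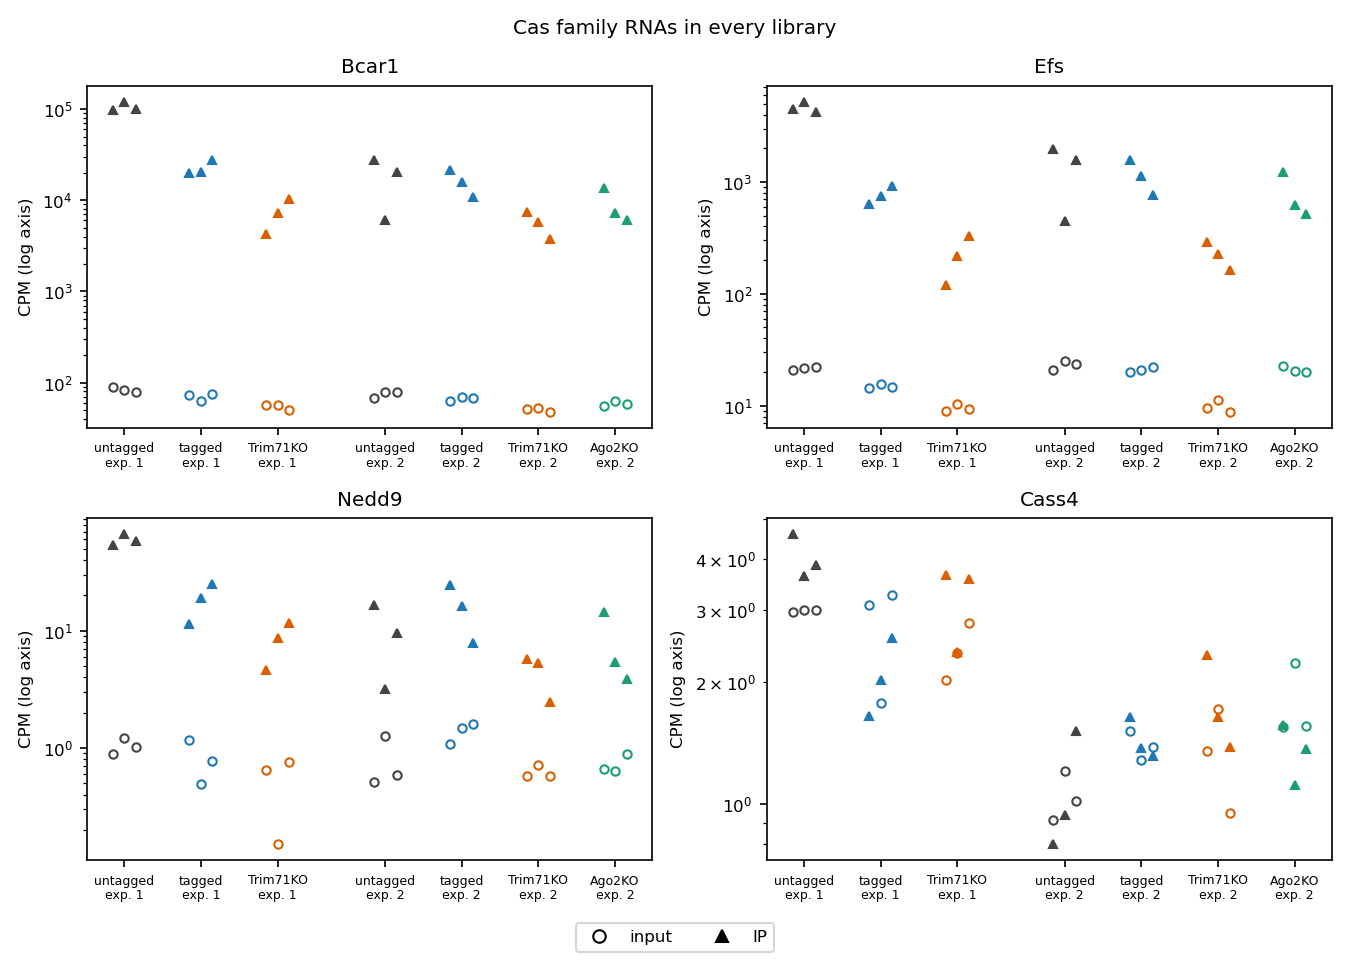
Level of the 4 Cas family RNAs in every library, in CPM on a log axis, with open circles for input and filled triangles for IP, by genotype and experiment. Bcar1, Efs and Nedd9 lie higher in IP than in input in each genotype, with Bcar1 at 3745 CPM or more in all IP libraries, whereas IP and input of Cass4 lie between 0.798 and 4.61 CPM and overlap in most groups.

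The partners of Cas proteins and the other lists given here held no members. Members were 0.177% of the genes in both tables, so 0 is near that share for lists of these sizes. The values of R given here are those the rule used. None of 32 genes for Cas partners and focal adhesion proteins was a member (0 of 32), and their R reached at most 0.44 in experiment 1 (Tln1, which links integrins to actin) and 0.11 in experiment 2 (Trip6). The kinase Src had R of -0.63 and -0.04, and Crk, the main adaptor bound by Cas proteins, had R of -0.47 and -0.13. Of 12 other docking adaptors 0 were members, and the highest R was 0.61 in experiment 1 (Dab2). Of 8 genes of RNA silencing 0 were members, and Tnrc6a itself had R of -0.53 and -0.30. Of the 8 measured among 12 listed abundant non-coding RNAs 0 were members, with R up to 0.47 (Snhg1) in experiment 1. The median R over all genes was -0.37 in experiment 1 and -0.08 in experiment 2.

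After Bcar1 the highest R belonged to 5 RNAs. Trp53bp1, which encodes the double-strand break protein 53BP1, had R of 8.91 and 6.37. Rab11fip5, an adaptor of recycling endosomes, had R of 8.72 and 6.05, and Gpr179, an orphan receptor known from the retina, had R of 7.72 and 5.53. Efs is given above, and Fip1l1, a factor of mRNA polyadenylation, had R of 7.57 and 4.75. Trp53bp1 rose from 91.5, 85.9 and 92.7 CPM in untagged input to 40186, 49317 and 40722 CPM in IP of experiment 1. Cenpf, a kinetochore protein, followed with R of 5.33 and 4.07, and Magel2, an adaptor of ubiquitin ligases from the imprinted Prader-Willi region, with 5.71 and 4.15.

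Incenp and Atad2 departed from the rest in that R was higher in experiment 2. Incenp, the scaffold of the chromosomal passenger complex, had IP levels of 1088, 1028 and 702.0 CPM in untagged cells of experiment 1 and 4746, 1311 and 3873 CPM in experiment 2, with R of 2.37 and 4.20. Its input stayed between 174 and 186 CPM in the untagged libraries of both experiments. Atad2, a bromodomain ATPase, had R of 3.22 and 3.56. Within a library, Bcar1 had 88.6 to 142 times as many IP counts as Incenp in untagged cells of experiment 1 and 4.68 to 5.81 times as many in experiment 2, whereas Bcar1 had 2.40 to 2.45 and 2.17 to 2.34 times as many as Trp53bp1. These are ratios of counts, not of levels per length. The experiments were tabled separately, and no test was made between them.

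The other members had R of 5.62 (Lama4) or less in experiment 1. Tubgcp4 (5.25 and 3.46), a component of the gamma-tubulin ring, and Lnx1 (5.13 and 2.11), a ubiquitin ligase of the Numb protein, each overlap another member. Tubgcp4 shares 3935 bases with Trp53bp1 on the opposite strand of chromosome 2, and Lnx1 shares 6343 bases with Fip1l1 on the opposite strand of chromosome 5. The library kit keeps strand, but how strand and overlaps were handled in counting is not given in the sources used here, so the values of Tubgcp4 and Lnx1 are uncertain. Wwp2 is a HECT ubiquitin ligase (2.66 and 2.56), Ttf1 terminates transcription of ribosomal RNA genes (4.62 and 2.58), Jmjd1c is a histone demethylase family member (4.43 and 2.16), Zfp697 is a zinc finger protein (4.65 and 2.17) and Unc13b primes vesicles for release (3.81 and 2.06). ENSMUSG00000103087, the member without a symbol, had 0 counts in all 3 untagged inputs and 22 to 34 counts in IP of experiment 1. With the input set to 3 counts per library, its IP level was at least 11.5-fold higher there and at least 8.83-fold higher in experiment 2.

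Proteins of the actin and spectrin cytoskeleton were encoded by 5 members described here. They are Sptbn1 (a spectrin), Iqgap1 (a scaffold for Cdc42 and Rac), Lima1 (an actin bundler), Dbn1 (drebrin, which binds filaments) and Lmo7 (a protein of adherens junctions). This grouping was made after the values were seen.

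The thresholds passed through a run of close values. The members with the lowest R in experiment 1 were ENSMUSG00000103087 (2.15), Lmo7 (2.203) and Incenp (2.37), and just outside lay ENSMUSG00000118478 (1.93), Phf20 (1.82) and Dnttip2 (1.80). In experiment 2 Zmiz1 (1.02), Pdcd4 (1.04) and Lmo7 (1.05) lay inside, and Svil (0.98) and Cgn (0.96) lay outside. With R of at least 2 required in both experiments 18 genes would be members, and with R of at least 1 in both there would be 50. Of the genes present in both tables, 51 reached the threshold in experiment 1 and 67 in experiment 2, and 33 reached both.

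The membership of the actin-linked RNAs rested on few libraries. In untagged cells of experiment 2 Iqgap1 stood at 58.2, 66.3 and 91.7 CPM in input and at 372, 66.8 and 86.3 CPM in IP. Sptbn1 stood at 64.3, 68.6 and 87.2 CPM in input and at 544, 80.6 and 91.9 CPM in IP. IP replicate 1 lay far above the input libraries for both genes, and the other IP libraries lay within the input range or, for Sptbn1 in replicate 3, just above it. Over the 5 genes the ratio ran from 2.35 to 3.07 in replicate 1, from -0.07 to 0.26 in replicate 2 and from -0.09 to 0.08 in replicate 3. The 6 leading members had ratios of 5.60 to 8.65, 3.19 to 6.27 and 4.64 to 8.01 in the same replicates. Without untagged replicate 1 of experiment 2 the rule gave 22 members, and those lost included Dbn1, Ecd, Iqgap1, Lama4, Lima1, Lmo7, Map1b, Pdcd4, Sptbn1 and Zmiz1.

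In experiment 1 the same 5 RNAs were highest in untagged replicate 2. Iqgap1 had 219.6, 656 and 324 CPM in IP and 52.5, 49.3 and 51.4 CPM in input, and the ratios of the 5 genes ran from 2.79 to 4.30 in replicate 2 and from 1.23 to 3.28 in the other replicates. Leaving out untagged replicate 2 of experiment 1 gave 30 members, and those lost included Lima1 and Lmo7.

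**Figure D2:**
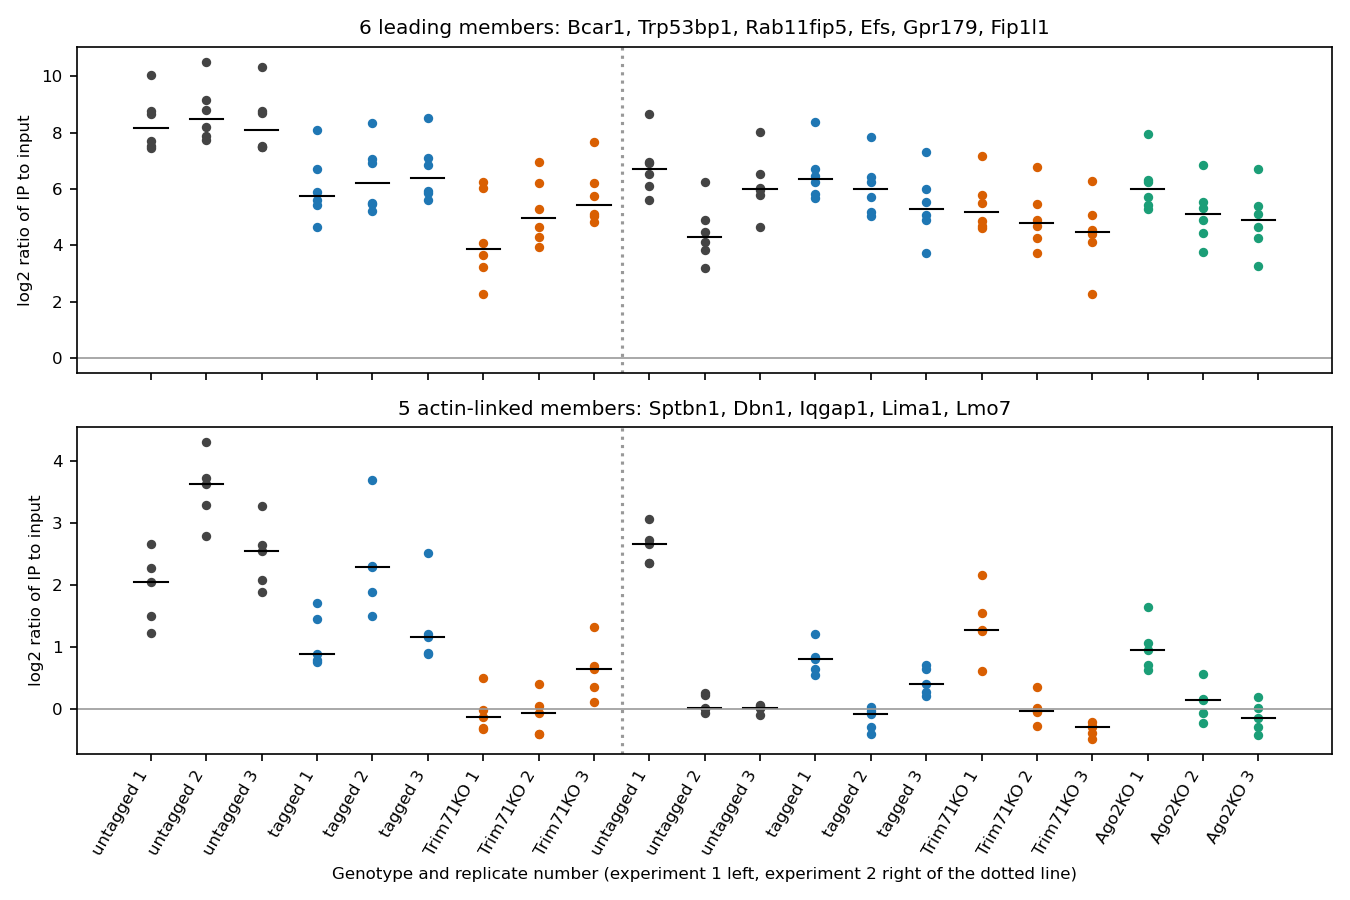
Log2 ratio of IP to input in every numbered pair of libraries for the 6 leading members (top) and the 5 actin-linked members (bottom). Points are genes, black bars are medians, colours are genotypes, and the dotted line divides the experiments. The leading members lie at 2.26 or more in every pair, whereas the actin-linked members lie near 0 in several pairs and at 2.35 or more in all genes only in untagged replicate 2 of experiment 1 and untagged replicate 1 of experiment 2.

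Members made up a large part of the bead-bound RNA of untagged cells in experiment 1. They held 18.8%, 23.4% and 19.3% of all counts in the 3 IP libraries and 0.1979% to 0.1999% in the inputs, and Bcar1 alone held 9.64%, 12.1% and 9.99%. In experiment 2 the untagged IP libraries gave 6.79%, 1.66% and 4.85%, with 0.196% to 0.218% in the inputs. The 3 untagged libraries of experiment 1 thus lay together, and those of experiment 2 spread over a wide range with replicate 2 lowest.

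In tagged cells the members' share of IP counts was 3.99%, 4.28% and 5.42% in experiment 1 and 5.12%, 3.94% and 2.92% in experiment 2. The tagged libraries lay below all untagged libraries in experiment 1 and within the untagged range in experiment 2. Since untagged libraries chose the members, this difference is given without a test. Libraries labelled Trim71KO held 1.45%, 2.11% and 2.87% in experiment 1 and 2.35%, 1.89% and 1.48% in experiment 2, below all tagged libraries of the same experiment. Ago2KO libraries held 3.81%, 2.19% and 1.95% and overlapped the tagged libraries. In experiment 2 replicate 1 had the largest share in all 4 genotypes, and what the replicates with the same number share is not stated.

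**Figure D3:**
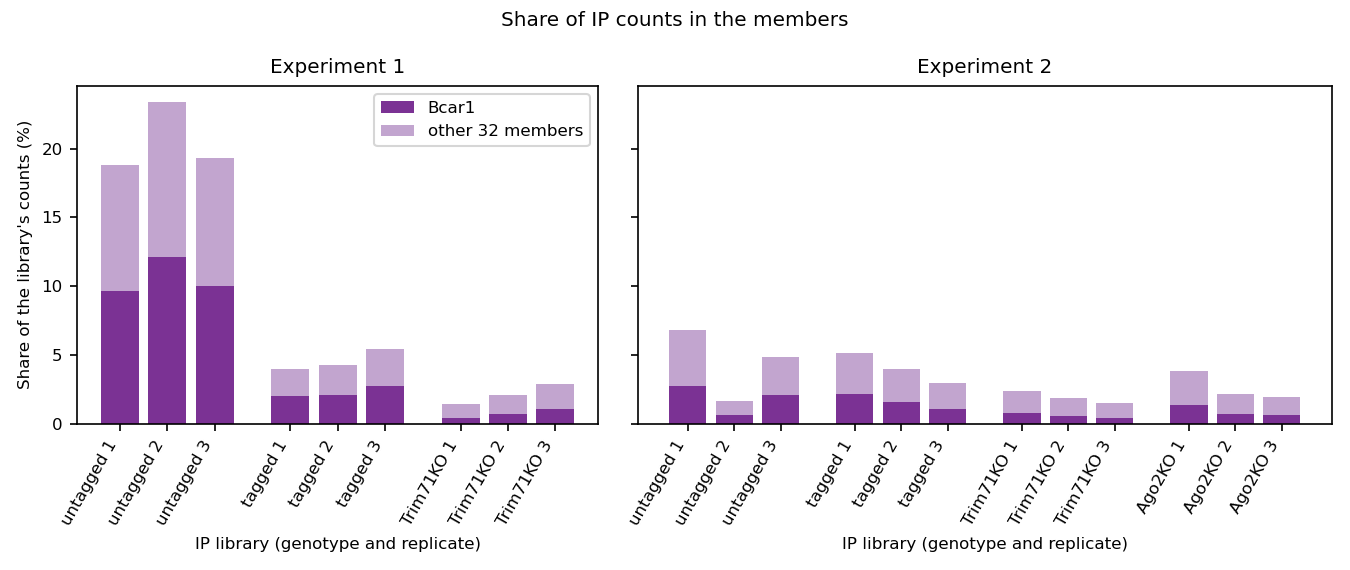
Share of each IP library's counts held by Bcar1 (dark) and the other 32 members (light), in percent, by genotype and replicate. Untagged libraries of experiment 1 reach 18.8% to 23.4%, and every other IP library lies at 6.79% or less.

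Most members were also higher in IP than in input in cells with the tag, whose libraries the rule did not use. In these cells capture by the beads alone and capture through HA-AVI-Tnrc6a cannot be told apart. In tagged cells of experiment 1, 33 of 33 members were higher in IP than in input at an edgeR adjusted p under 0.05, beside 32.4% of all genes. In experiment 2 there were 27 of 33, beside 23.2% of all genes. Both counts include ENSMUSG00000103087, which had 10, 2 and 2 counts in tagged IP of experiment 1. There it passed the filter on low counts only through the untagged IP libraries that chose it, which held 22 to 34 counts. In Trim71KO cells 27 members were higher in experiment 1 (30% of all genes) and 25 in experiment 2 (26.9% of all genes), and in Ago2KO cells 27 were higher (19.7% of all genes). The median log2 change of the members was 3.005 and 2.94 in tagged cells, 2.13 and 1.87 in Trim71KO cells and 2.15 in Ago2KO cells, while the median over all genes lay between -0.14 and -0.01. Without ENSMUSG00000103087, whose input was at the floor, the members' medians were 3.04, 2.83, 2.11, 1.92 and 2.07 in the same order. Fits of only the groups compared tested 32 members and called 32 higher in tagged cells of experiment 1 (33.8% of all genes), 30 in tagged cells of experiment 2 (23.7%), 29 in Trim71KO cells of each experiment (33.5% and 27.8%) and 29 in Ago2KO cells (19.8%). No member was called lower in IP in these comparisons. Per total count, 32 of 33 members had R above 0 in Trim71KO cells of experiment 1, where Lmo7 had -0.08.

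Bcar1 kept a high place in each genotype. In tagged cells it stood at 73.2, 63.3 and 74.7 CPM in input and at 20132, 20495 and 27295 CPM in IP of experiment 1 (log2 change 8.69, SE 0.28, edgeR adjusted p 3.18e-18). In experiment 2 it stood at 63.6, 69.0 and 68.0 CPM in input and at 21228, 15961 and 10941 CPM in IP (8.22, SE 0.47, edgeR adjusted p 5.42e-14). Groups did not overlap in either experiment. By R it ranked 1 among all genes in tagged cells of both experiments and 2 in Trim71KO and Ago2KO cells. Trp53bp1 ranked 3 and 4 in tagged cells (log2 change 7.32, SE 0.16, edgeR adjusted p 1.43e-20 and 6.62, SE 0.36, edgeR adjusted p 2.24e-14).

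Efs went from 14.2, 15.7 and 14.8 CPM in tagged input to 640, 745 and 924 CPM in IP of experiment 1 (6.05, SE 0.26, edgeR adjusted p 7.54e-16), and from 20.0, 20.9 and 22.0 to 1574, 1137 and 765 CPM in experiment 2 (6.10, SE 0.44, edgeR adjusted p 6.25e-12). Nedd9 went from 1.16, 0.489 and 0.772 to 11.4, 18.8 and 24.9 CPM in experiment 1 (4.88, SE 0.36, edgeR adjusted p 2.37e-11). For both genes IP libraries lay wholly above input libraries. Cass4 was not higher in tagged cells in either experiment, and of the Cas family it was called only in Trim71KO cells of experiment 1.

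In the fit of all groups, the 5 actin-linked RNAs were among the members not called higher in tagged cells of experiment 2. Iqgap1 stood at 65.8, 59.2 and 89.1 CPM in input and at 119, 57.9 and 104 CPM in IP (log2 change 0.69, SE 0.45, edgeR adjusted p 0.232), and the groups overlapped. Their log2 changes there ran from 0.58 (Lima1) to 1.07 (Sptbn1). In tagged cells of experiment 1 the same RNAs were called, with log2 changes of 1.47 (Lima1) to 3.07 (Sptbn1), and the median of their ratios was highest in replicate 2 (0.89, 2.29 and 1.16). In that fit the 5 genes were also not called in Trim71KO cells of experiment 2 or in Ago2KO cells, and of them Sptbn1 alone was called in Trim71KO cells of experiment 1. These calls turned on the fit. With only the groups compared, Sptbn1 (edgeR adjusted p 0.0145), Dbn1 (0.0256), Iqgap1 (0.0392) and Lmo7 (0.0379) were called higher in tagged cells of experiment 2 and Lima1 (0.0524) was not. Sptbn1 and Iqgap1 were then called in Trim71KO cells of both experiments and in Ago2KO cells.

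Incenp was higher in experiment 2 also in tagged cells. There the order was not particular to Incenp and Atad2, since Cenpf, Magel2, Pdcd4 and further members shared it. Incenp went from 182, 184 and 179 CPM in input to 317, 257 and 269 CPM in IP of experiment 1 (0.99, SE 0.21, edgeR adjusted p 0.000218). In experiment 2 it went from 158, 176 and 192 to 1883, 1961 and 1681 CPM (3.69, SE 0.27, edgeR adjusted p 7.43e-12). IP lay above input in both experiments without overlap. Atad2 gave 1.86 (SE 0.22) and 3.44 (SE 0.27) in the same comparisons.

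**Figure D4:**
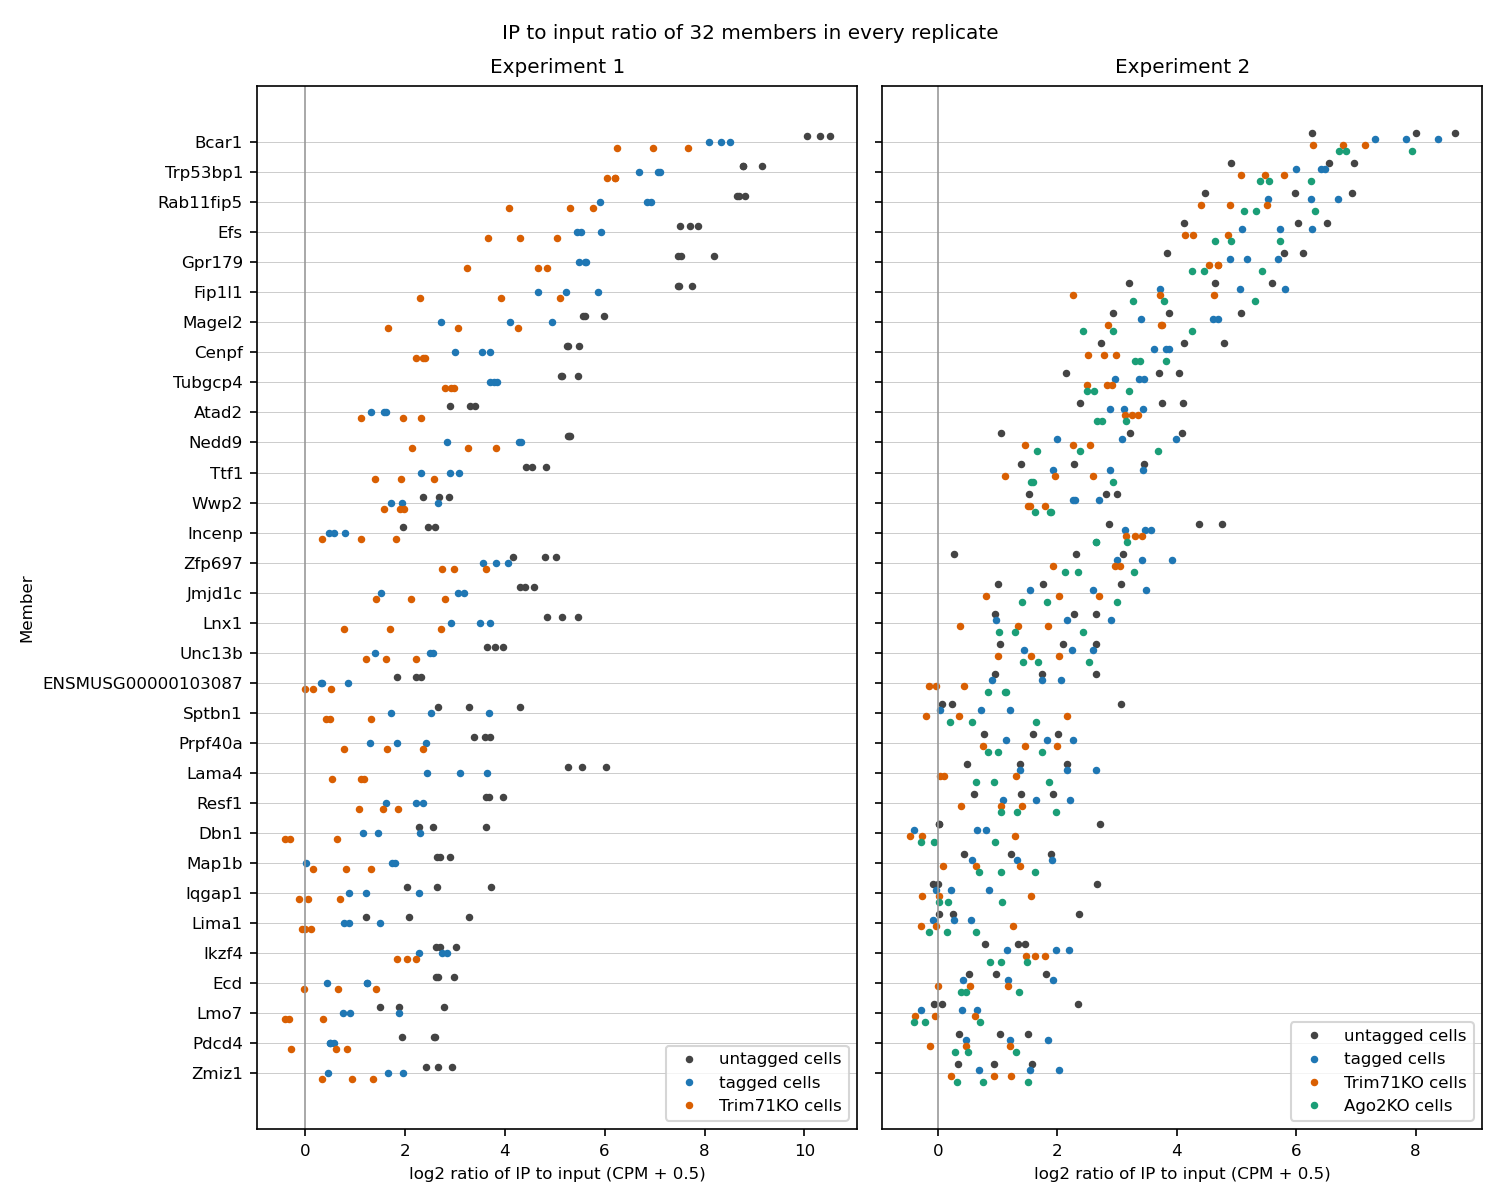
Log2 ratio of IP to input of 32 members in every numbered pair of libraries, by genotype, in experiments 1 and 2. In experiment 1 untagged cells lie to the right of tagged and Trim71KO cells for most members, and in experiment 2 the genotypes overlap, with Bcar1 at the top in both.

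The lists beside the members were tested in the same fits. Among the 32 Cas partners 18 were higher and 8 lower in IP of tagged cells in experiment 1 with a median of 0.42, and 15 higher and 5 lower in experiment 2 with a median of 0.12. Over all genes 32.4% were higher and 33.7% lower in experiment 1, and 23.2% higher and 15.4% lower in experiment 2. Of 12 docking adaptors 8 were higher and 2 lower in experiment 1 (median 1.05), and 6 higher and 0 lower in experiment 2 (median 0.39). Of 8 silencing genes 8 were higher in both experiments, with medians of 2.41 and 1.32. Of 8 abundant non-coding RNAs 1 was higher in each experiment, and 5 and 4 were lower.

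The next comparison asked whether the members' IP to input ratio differed in mutant cells, through an interaction of fraction and genotype. No untagged library stands in that contrast, but the untagged libraries entered the fit and with it each gene's spread and the filter on low counts. In Trim71KO cells of experiment 1, 9 of 33 members had a lower ratio than in tagged cells and 0 a higher ratio, beside 3.74% of all genes called in either direction. They were Bcar1, Trp53bp1, Rab11fip5, Efs, Cenpf, Tubgcp4, Sptbn1, Lama4 and Dbn1. Since Tubgcp4 overlaps Trp53bp1, its value is uncertain and its call may not be separate. The members' median log2 change was -0.91, against -0.04 over all genes, and 30 of 33 lay below 0. The members that did not lie below 0 were Atad2 (0.28), Incenp (0.47) and ENSMUSG00000103087, which was at the floor in Trim71KO cells.

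Bcar1 stood in Trim71KO cells of experiment 1 at 56.2, 56.8 and 50.2 CPM in input and at 4290, 7174 and 10324 CPM in IP, so that all IP libraries lay below the tagged ones. Within IP libraries Bcar1 had 0.724 to 1.46 times as many counts as Trp53bp1 in Trim71KO cells and 2.14 to 2.67 times as many in tagged cells. Mean input moved too, from 70.4 to 54.4 CPM for Bcar1 and from 76.9 to 92.5 CPM for Trp53bp1. Relative to Rab11fip5, Incenp and Atad2 Bcar1 was also lower in Trim71KO cells. Relative to Fip1l1 and Cenpf the genotypes overlapped, and relative to Efs Bcar1 was higher (31.7 to 35.9 against 27.5 to 31.5). The IP to input ratio of Bcar1 fell by 1.39 on the log2 scale (SE 0.29, edgeR adjusted p 0.00529). Cenpf stood at 2195, 2294 and 2873 CPM in IP of tagged cells and at 892, 1048 and 1117 CPM in Trim71KO cells, without overlap, and its ratio fell by 1.20 (SE 0.19, edgeR adjusted p 0.000205). Lama4, a laminin chain of basement membranes, stood at 10.7, 17.9 and 21.2 CPM in IP of tagged cells and at 2.30, 4.61 and 5.87 CPM in Trim71KO cells, with the largest fall among the members (2.37, SE 0.46; log2 change -2.37, edgeR adjusted p 0.00223). The ratio of Rab11fip5 fell by 1.52 (SE 0.42, edgeR adjusted p 0.0413) while its input RNA was higher in Trim71KO cells, as given below.

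Counts of such calls moved with single libraries. The count was 5 without tagged input replicate 3, without Trim71KO input replicate 2 or 3, or without Trim71KO IP replicate 2, and 15 without Trim71KO IP replicate 3. Shares of all genes are not given for these fits, so the counts cannot be weighed. In fits of only the groups compared 11 members were called, all lower, beside 2.73% of all genes. Those 11 held all 5 actin-linked RNAs, with log2 changes of -1.22 (Lima1) to -2.003 (Sptbn1), and did not hold Rab11fip5 and Efs.

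In Trim71KO cells of experiment 2, 0 of 33 members were called by edgeR, beside 1.49% of all genes. DESeq2 also called 0. At an unadjusted p under 0.05 there were 9 members, beside 15.2% of all genes. The median log2 change was -0.74, against 0.01 over all genes, and 29 of 33 members lay below 0. Bcar1 stood at 51.7, 52.7 and 47.5 CPM in input and at 7454, 5837 and 3745 CPM in IP, below all tagged IP libraries, with a log2 change of -1.17 (SE 0.50, edgeR adjusted p 0.253). Trp53bp1 stood at 4463, 4201 and 3291 CPM in IP, also below the tagged values of 8944, 7771 and 6383 CPM (-0.91, SE 0.41, edgeR adjusted p 0.278). The SE of the members was large in this fit, with a median of 0.52 against 0.18 over all genes. Fits of only the groups compared called 3 members, Trp53bp1 (-0.91), Cenpf (-1.07) and Wwp2 (-0.86), beside 0.712% of all genes. With the replicate number as a block 2 members were called, Cenpf (-1.05, edgeR adjusted p 0.0465) and Lama4 (-1.90, edgeR adjusted p 0.00977), beside 2.38% of all genes.

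The log2 changes of the actin-linked RNAs in experiment 2 had wide errors, with SEs of 0.50 (Lmo7) to 0.74 (Sptbn1), and were not tested against those of the other members. They ran from -0.28 (Lmo7) to 0.09 (Sptbn1) in Trim71KO cells, where the median of their ratios was highest in replicate 1, and Sptbn1 stood in IP at 287, 87.4 and 105 CPM. Of the other members Atad2 had 0.04 (SE 0.35) and Incenp -0.16 (SE 0.35). In experiment 1 they had 0.28 (SE 0.30) and 0.47 (SE 0.29), and neither was called in either experiment.

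In Ago2KO cells 0 of 33 members were called by edgeR, beside 4.16% of all genes, and 2 members had an unadjusted p under 0.05, beside 13.5% of all genes. DESeq2 called 0 here too. The count was 1 without tagged IP replicate 3 or without Ago2KO IP replicate 1, fits whose share of all genes is not given. The median log2 change was -0.63, against 0.00 over all genes, and 31 of 33 lay below 0. Bcar1 stood at 13688, 7191 and 6133 CPM in IP and at 55.4, 62.5 and 57.6 CPM in input, and replicate 1 lay within the tagged range (log2 change -0.76, SE 0.50, edgeR adjusted p 0.584). Fits of only the groups compared called 2 members, Wwp2 (-0.76) and Incenp (-0.70), beside 3.04% of all genes. With the replicate number as a block 1 member was called, Lama4 (-1.23, edgeR adjusted p 0.0394), beside 5.24% of all genes. The Trim71KO and Ago2KO comparisons of experiment 2 share the tagged libraries.

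**Figure D5:**
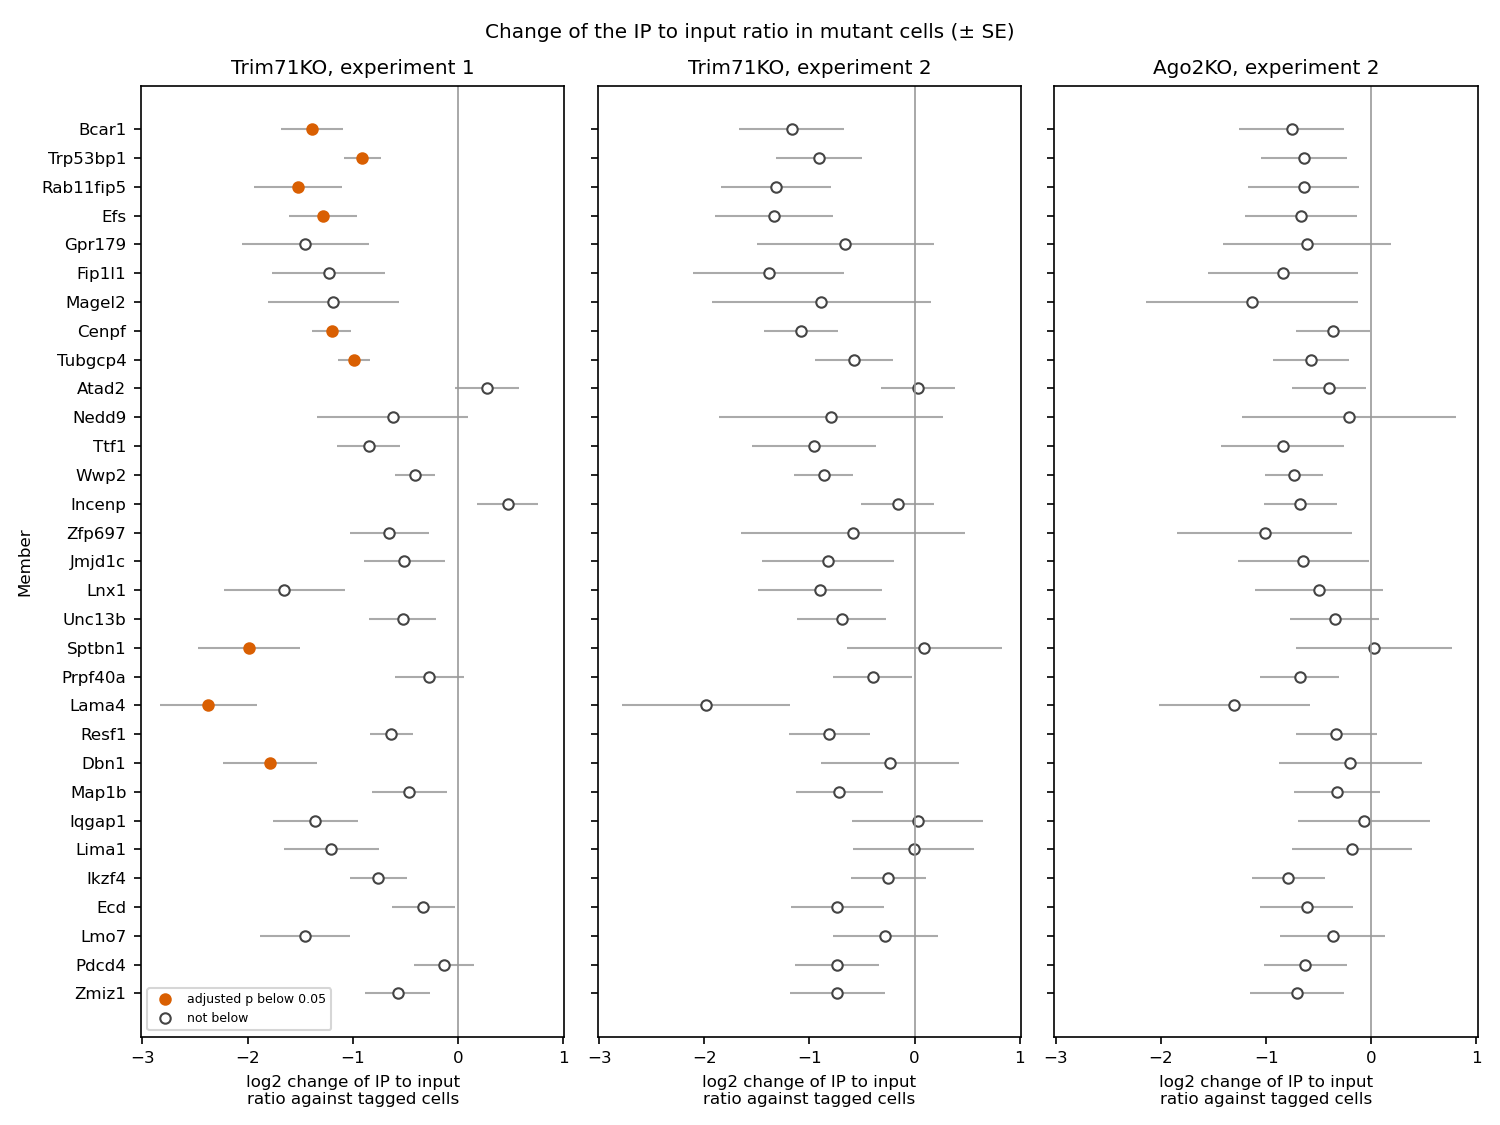
Log2 change of the IP to input ratio against tagged cells for 31 members with a symbol, with bars of 1 SE. Filled points have an edgeR adjusted p below 0.05, which 9 members reach in Trim71KO cells of experiment 1 and 0 reach in experiment 2, and most points lie left of 0 in all 3 panels.

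The input level shows whether the RNAs themselves were more or less abundant in the lysate of mutant cells. In bulk lysates fewer cells with an RNA and less RNA per cell cannot be told apart. In Trim71KO cells of experiment 1, 4 of 33 members changed, beside 34% of all genes. Rab11fip5 rose from 8.97, 5.87 and 8.73 CPM to 14.9, 14.5 and 16.5 CPM (log2 change 0.92, edgeR adjusted p 0.0321) and Unc13b rose by 0.63 (edgeR adjusted p 0.04). Efs fell by 0.68 (edgeR adjusted p 0.0368), from 14.2, 15.7 and 14.8 CPM to 8.96, 10.4 and 9.40 CPM, and Resf1, a regulator of silenced retroelements, fell by 0.41 (edgeR adjusted p 0.0312). The groups of Rab11fip5 and Efs did not overlap. The count was 1 without tagged input replicate 2 or 3, 2 without Trim71KO input replicate 1 or 2 and 0 without Trim71KO input replicate 3. Here too the shares of all genes are not given, so the counts cannot be weighed.

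In experiment 2 the fit of all groups called 0 members by edgeR in Trim71KO input, beside 27.2% of all genes. In Ago2KO input it called 0, beside 6.96% of all genes. At an unadjusted edgeR p under 0.05 there were 1 and 0 members, beside 37.8% and 19.6% of all genes. DESeq2 called 1 and 0 members, and its share of all genes is not given here. The median SE of the members was 0.40 in the Trim71KO and 0.41 in the Ago2KO comparison, against 0.13 over all genes in both. The fit takes 1 spread per gene over IP and input libraries, and the members differed widely among IP replicates. The part of this in the SE was not tested. With the replicate number as a block 3 members were called in Trim71KO input, Efs (-1.03, edgeR adjusted p 0.0231), Lmo7 (0.69, edgeR adjusted p 0.0107) and Pdcd4 (-0.43, edgeR adjusted p 0.0298), beside 29.4% of all genes.

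Fits of only the input libraries compared called more members. In Trim71KO cells of experiment 1 there were 7 higher and 4 lower, beside 34.5% of all genes, and in experiment 2 there were 4 higher and 7 lower, beside 31.2% of all genes. Rab11fip5 (0.93 and 0.48) and Lmo7 (0.76 and 0.69) were higher in both experiments. Bcar1 (-0.41 and -0.33) and Efs (-0.67 and -1.03) were lower in both. In experiment 2 Efs went from 20.0, 20.9 and 22.0 CPM to 9.45, 11.2 and 8.77 CPM, without overlap. Nedd9 (-1.07) and Zfp697 (-1.16) were called lower in experiment 2. They were not called in experiment 1, where they had -0.67 (SE 0.52) and -0.66 (SE 0.36). Their input counts in experiment 2 were few. Nedd9 had 11, 13 and 11 counts in Trim71KO and 20, 25 and 30 in tagged input. Zfp697 had 9, 6 and 14 in Trim71KO and 27, 22 and 17 in tagged input. Resf1 was lower in experiment 1 (-0.40) and higher in experiment 2 (0.39). In Ago2KO cells 5 members were higher and 2 lower, beside 13.3% of all genes, led by Lmo7 (0.61), Map1b (0.46), a protein that binds microtubules, and Dbn1 (-0.44).

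The members shared properties that the rule did not use. Their median length in the tables was 8871 bases against 3476.5 over all genes in both tables, and 16 of 33 (48.5%) exceeded 9000 bases, against 9.78% of all genes. The shortest member had 885 bases and the longest 22746. Of the members, 3.03% lacked a symbol, against 16.7% of all genes, and 0 had a Gm or Rik symbol, against 8.08%. The median input level in untagged cells, which enters R and so was used by the rule, was 48.1 CPM in experiment 1 against 14.4 CPM over all genes. Long genes also have more counts, and the part of depth in these differences was not tested.

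The scaling of libraries shifted the ratios as a whole. The median ratio of IP to input over all genes in tagged cells of experiment 1 was -0.37 per total count and -0.09 after TMM scaling. R is given per total count, and the log2 changes with SE are after TMM scaling, so that for Bcar1 the values were 8.32 and 8.69 in these cells.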

How the data were processed

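For both experiments the authors deposited raw counts per gene, which were taken as whole numbers without change. Per the submitters' processing notes, STAR 2.7.3a and bcl2fastq 2.20 were used with GRCm38/mm10; counting rules are not given in the sources used here. The deposited tables also give a gene length in bases, used for levels per kilobase, and RPKM values that were not used. Members and gene lists were chosen with earlier results of these data known.

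The quasi-likelihood test of edgeR 4.0.16 (R 4.3.3) was run after TMM scaling and filterByExpr, and all groups of an experiment entered 1 fit. Calls required p under 0.05 after Benjamini-Hochberg adjustment across the whole table. SE is the log2 change over the root of F. Values in untagged libraries chose the members and were not tested. All 33 members passed the filter on low counts in the fits of all groups of both experiments. Fits of only the groups compared did not test ENSMUSG00000103087, except for the ratio in Ago2KO cells. Named genes were the Cas family, the 20 members of highest lower R, up to 5 called members each way per comparison, 3 genes on each side of each threshold and up to 4 per list; other genes named, among them the actin-linked members, were chosen after their values were seen. At 12587257 counts or more per library 3 counts served as the floor; reads carry no stated molecular identifiers, so bounds cover counting error only. All 42 pairs of replicates differed by more than sampling noise (chi-square per gene of 2.87 to 64.1). Equal replicate numbers correlated above 0.1 in all 3 pairs between tagged and Trim71KO cells of experiment 2 over genes with a mean log2 CPM of at least 5 (input 0.376, 0.491 and 0.565; IP 0.401, 0.429 and 0.422), and not over all genes tested (input 0.0374, 0.119 and 0.0555). Ago2KO and tagged cells did so in IP (0.693, 0.12 and 0.567) but not in input (0.396, -0.0138 and 0.44). The replicate block is printed beside the results of experiment 2 that it changed. Alternatives were DESeq2 1.42.0, RLE size factors, library size alone, no filter, replicate blocks, fits of the groups compared, each library left out and, chosen after seeing the data, fits without untagged libraries. A planned search of member proteins for parts of the HA epitope was not run, because no protein sequences were used here. Values of some genes are not reported here, though counts over the members include them.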

Additional observations from a re-analysis of the deposited data

Results flagged for a closer look

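The IP to input ratio of 9 members differed between Trim71KO and tagged cells of experiment 1 by the interaction test (edgeR adjusted p under 0.05). Over all genes 3.74% were called in either direction. The log2 changes were -2.37 for Lama4, -1.99 for Sptbn1, -1.79 for Dbn1, -1.52 for Rab11fip5, -1.39 for Bcar1, -1.28 for Efs, -1.20 for Cenpf, -0.99 for Tubgcp4 and -0.91 for Trp53bp1. Tubgcp4 overlaps Trp53bp1, so its call may not be separate. In experiment 2 none of the 9 passed the same test (0 of 33 members, beside 1.49% of all genes). At an unadjusted edgeR p under 0.05 there were 9 members, beside 15.2% of all genes. Groups of 3 libraries were not searched for outlying samples.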

How the results depend on the processing

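The rule gave 50 members with R of at least 1 in both experiments and 18 with at least 2 in both, and 22 to 37 without 1 untagged replicate. All 18 of those were higher in IP of tagged cells in experiment 1. Leaving out 1 library gave 32 to 33 members higher in IP in tagged and 27 to 29 in Trim71KO cells of experiment 1, and 27 to 27, 21 to 27 and 23 to 27 in tagged, Trim71KO and Ago2KO cells of experiment 2. The count of changed ratios in Trim71KO cells of experiment 1 ran from 5 to 15 and of changed inputs from 0 to 4. In experiment 2 these were 0 to 0 for both in Trim71KO cells, 0 to 1 for ratios in Ago2KO cells and 0 to 0 for their inputs.

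With the replicate block, changed ratios numbered 14 in Trim71KO cells of experiment 1, 2 in experiment 2 and 1 in Ago2KO cells. Changed inputs numbered 7 and 3 in Trim71KO cells of experiments 1 and 2. In experiment 2 the shares of all genes were 2.38% and 5.24% for ratios and 29.4% for inputs. For experiment 1 the share with the block is not given, so its counts cannot be weighed. The block moved no other count by over 1.5 times. Fits of only the groups compared called 11 inputs in Trim71KO cells of each experiment, beside 34.5% and 31.2% of all genes. They called 7 inputs in Ago2KO cells, beside 13.3% of all genes. Of the ratios in experiment 2 they called 3 in Trim71KO and 2 in Ago2KO cells, beside 0.712% and 3.04% of all genes. Without untagged libraries, an alternative chosen after seeing the data, 2 ratios in each mutant and 2 Trim71KO inputs were called in experiment 2. Library size alone called 1 Trim71KO input there, and DESeq2 called 1. The cause of these differences was not tested. Shares of all genes are not given for the fits without untagged libraries, with library size alone or by DESeq2. Nor are they given for fits that leave out 1 library.

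Values near 0 changed sign. Efs input in Ago2KO cells (0.03) was -0.0054 with library size alone and ran from -0.0294 to 0.068 without 1 library. The Nedd9 ratio in Ago2KO cells (-0.21) ran from -1.0291 to 0.2689 without 1 library. RLE size factors and no filter on low counts left all 55 values of named genes in the comparisons on their side of the threshold. Members with few counts, such as ENSMUSG00000103087, are limited by depth.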
